A study of Drosophila melanogaster with 15 samples.

Results

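The comparison set wing imaginal discs in which avl was knocked down, taken 116 h after egg deposition, against normal discs taken earlier, at 92 h. It used 6 of the study's 15 arrays, 3 per group, and 11982 annotated genes. The question is which differences of the knockdown disc at 116 h remain when the normal disc is a younger one, so that genes merely held at an earlier developmental level can be told from genes outside the range of both normal ages. For that reason the 3 control arrays of 116 h stand beside the main comparison, and the 3 avl-RNAi arrays of 92 h and the 3 of 168 h are cited where a value needs them.

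Knockdown larvae carried w-, 1 copy of elav-GAL80, and 1 copy each of Rn-GAL4 and UAS Avl RNAi. Control larvae carried w-, elav-GAL80 and Rn-GAL4 without the UAS construct. The background was w1118 for both, so the control also contained the driver and the repressor. Eggs were collected for 2 h and larvae were kept at 25 °C. The labels call the avl-RNAi discs neoplastic and the controls wild type. Rn-GAL4 follows the rotund gene, which is active in the presumptive wing pouch, and elav-GAL80 blocks GAL4 in neurons. A knockdown disc therefore also contains cells that carry the construct without driving it. Each array started from 200 ng of total RNA. The labels speak of 3 separate samples per time point without saying whether they came from separate larval pools, so p-values measure the spread between these samples.

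The wing disc is a single-layered epithelium that grows through larval life and then, under pulses of the steroid ecdysone, switches to the programme of metamorphosis. avl, now named Syx7, encodes a syntaxin that membranes need to fuse with early endosomes. Its loss in imaginal discs is a classical cause of lost cell polarity and tumour-like overgrowth. Damaged or overgrown discs release the relaxin-like peptide Ilp8, which delays the larva's entry into metamorphosis, so a tumour-bearing larva and its disc can be developmentally younger than their age in hours.

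Values are the deposited log2 values, whose base was inferred from their range. A difference of 1 is then 2-fold. Differences are given with their standard error from limma's fit to all 15 arrays. A gene was called, and is said to have risen or fallen, at an adjusted p under 0.05. The knockdown itself could not be read here, since Syx7 had no probe set named for it alone, and the same holds for upd3 and Mmp1. For 8 genes of the wing disc epithelium (nub, vg, ap, rn, Dll, Doc2, pnr and eyg) the mean level was 8.36 to 8.52 in control 92 h arrays and 7.96 to 8.22 in avl-RNAi 116 h arrays. Levels of different probe sets are not comparable, so these values follow the disc markers across arrays and do not test the tissue label.

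Transcripts of other larval tissues varied between these arrays. Their calls are to be read beside all genes, of which 15.1% rose and 20.5% fell. Averaged over 19 genes for gut proteases and lysozymes, the level was 6.68, 6.70 and 5.0 in the control 92 h arrays, with replicate 3 apart, and 5.14 to 5.28 in the avl-RNAi 116 h arrays. Of these genes 3 fell and none rose. The mean of 5 salivary glue genes was 4.66 to 4.92 in control and 5.57 to 7.05 in avl-RNAi arrays, and 4 of the 5 rose. With mean gut, muscle and fat body levels as covariates, none of the 5 was called. For 9 genes of differentiated muscle it was 7.35 to 7.80 and 6.93 to 7.46, with 2 lower. For 3 fat body genes it was 8.50 to 9.06 and 9.33 to 11.29, with 1 higher. For 10 haemocyte genes it was 5.94 to 6.49 and 5.84 to 7.37, with none called by limma. For 6 tracheal genes it was 9.26 to 9.40 and 9.67 to 9.74, with 3 higher. For 5 neuronal genes it was 5.25 to 5.34 and 5.44 to 5.47, with 1 higher. In control 116 h arrays the means were 4.82 to 6.52 for gut and 6.85 to 7.39 for glue genes. There muscle genes measured 5.92 to 6.69, fat body 8.88 to 11.27 and haemocyte genes 6.21 to 6.61. Tracheal genes measured 9.47 to 9.52 and neuronal genes 5.30 to 5.36. The part of these tissues in the results below was not tested beyond the fits with covariates. In whole discs, fewer cells of a type and less RNA per cell cannot be told apart.

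Against the younger control, 1805 genes were higher in avl-RNAi discs of 116 h (15.1% of those tested) and 2459 were lower (20.5%), together 4264 genes or 35.6%. Rises were larger than falls. At least 2-fold changes were 292 rises (2.44%) and 81 falls (0.676%). The 3 arrays of one group all lay on one side of the 3 of the other for 5369 genes (44.8%). The median standard error of a difference was 0.0737. The division into rises and falls rests on the scale: with each array centred on its gene median, the median difference of all genes moved from -0.026 to -0.185, and 16.7% of the calls were rises where the deposited scale gave 42.3%. Small falls shared by many genes are therefore to be read relative to that shift. With the mean gut, muscle and fat body levels as separate covariates 3213 genes were called, of which 371 were at least 2-fold apart.

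The largest rise among named genes was that of TwdlE, a cuticle protein of the Tweedle family. It measured 3.99, 4.13 and 3.92 in control 92 h arrays and 10.64, 10.72 and 10.51 in avl-RNAi 116 h arrays. The groups were far apart, by 6.61 ± 0.177 or 97.9-fold (limma adjusted p = 1.83e-11). Control discs of 116 h measured 7.2, 7.28 and 7.67, so the gene also rises in normal discs, but the knockdown disc lay 3.24 above them.

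Ilp8 measured 5.99, 5.75 and 5.72 in control 92 h discs and 10.81, 10.39 and 10.63 in avl-RNAi 116 h discs. No array of either group came near the other, and the difference was 4.79 ± 0.157 or 27.7-fold (limma adjusted p = 1.11e-10). In normal discs the Ilp8 value was lower at 116 h (4.66, 4.51 and 4.60), which made the same-age difference larger, 6.02 ± 0.157. At 92 h the avl-RNAi arrays already measured 6.99, 7.75 and 7.2, which was 1.49 above their same-age control (limma adjusted p = 9.32e-05).

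Tdc1 and Ddc, both decarboxylases of amine synthesis, were among the largest rises. Tdc1, a tyrosine decarboxylase of tyramine synthesis, measured 4.81, 4.76 and 4.72 in the younger controls and 9.75, 9.17 and 9.50 in the knockdown, a rise of 4.71 ± 0.123. Ddc, the dopa decarboxylase of dopamine synthesis and cuticle hardening, went from 4.95, 4.85 and 5.14 to 8.36, 8.46 and 8.40, a rise of 3.42 ± 0.082. Both genes sat at the same low values in control 116 h discs (4.57 to 4.77 for Tdc1 and 4.94 to 5.24 for Ddc), so neither rise depends on which control age is used. Jhbp12, named for juvenile hormone binding, rose by 3.24 ± 0.121. flap rose by 3.60 ± 0.162 and Rcd2 by 3.42 ± 0.0873. wun2, a lipid phosphate phosphatase, rose by 3.93 ± 0.119.

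A few large differences were carried by scattered arrays. Obp56d, an odorant-binding protein gene, rose by 3.83 ± 1.22 (limma adjusted p = 0.0246), with avl-RNAi arrays at 6.91, 9.83 and 7.53. Osi6, of the Osiris cuticle-associated family, measured 8.85, 6.15 and 5.86 in avl-RNAi arrays against 3.72, 3.84 and 3.81, and its standard error of 0.551 reflects replicate 1.

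Many of the largest falls were of genes that also fall in normal discs between 92 and 116 h. CAH9, of the carbonic anhydrase family, measured 6.83, 7.35 and 6.71 in control 92 h discs and 4.17, 4.25 and 4.35 in avl-RNAi 116 h discs, a difference of -2.70 ± 0.146. Its control 116 h values of 4.34, 4.06 and 4.29 overlapped the knockdown's. The cuticle genes Cpr47Eg and Lcp65Ag3 fell by 2.69 and 2.46 and differed from control 116 h by 0.17 and 0.15. Nplp4, a neuropeptide-like precursor gene, fell by 1.94, and Elovl7, of the fatty acid elongase family, fell by 1.91. The acyl-CoA-binding gene Acbp5 fell by 1.87. Its relative Acbp6 fell by 2.24 ± 0.785, but its control 92 h arrays measured 8.08, 8.14 and 5.76, the low one being the array that was also low in gut transcripts.

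**Figure D1:**
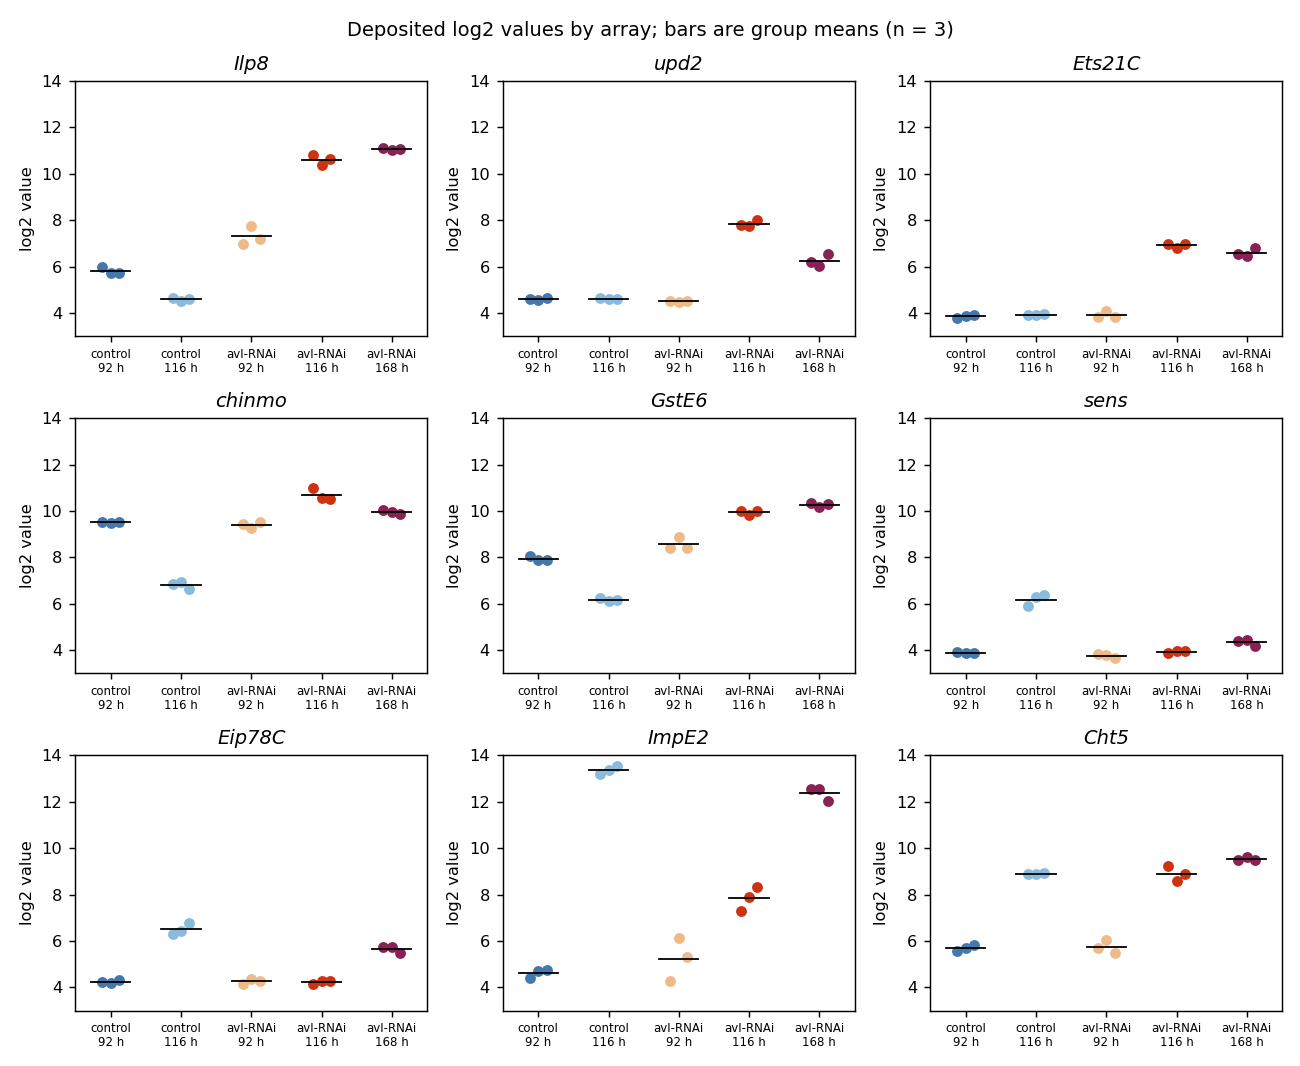
Deposited log2 values of 9 genes in each of the 15 arrays, with points for arrays and bars for the means of 3 arrays. Ilp8, upd2, Ets21C, chinmo and GstE6 were higher in avl-RNAi 116 h than in both control ages, sens and Eip78C lay at the control 92 h level, ImpE2 between the control ages and Cht5 at the control 116 h level.

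The same-age comparison shows how much of its result persists against a younger control. Both differences use the same avl-RNAi 116 h arrays, so they are given side by side and not as independent evidence. Against control 116 h, 1511 genes were higher (12.6%) and 2283 lower (19.1%), of which 306 (2.55%) and 163 (1.36%) were at least 2-fold apart. Of the 306 rises, 241 (78.8%) were also higher than the younger control, 7 were lower than it, and 19 (6.21%) were uncalled with a 95% interval inside 1.5-fold of it. The remaining 39 (12.7%) were not resolved. Of the 163 falls, 65 (39.9%) were also lower than the younger control, 33 (20.2%) were higher than it, 49 (30.1%) were uncalled and inside 1.5-fold, and 16 (9.82%) were not resolved. Most large same-age rises therefore stayed when the control was younger, and most large same-age falls were not called lower against it.

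Genes called the same way against both control ages lie outside the range of normal discs at the ages sampled. These were 991 genes above both (8.27%) and 1353 below both (11.3%). With at least 2-fold from each, 167 lay above (1.39%) and 27 below (0.225%). Of the 167, 93 had a name and 74 only a number. Their median difference was 1.65 from control 92 h and 1.72 from control 116 h. With the tissue covariates 761 genes in all lay beyond both ages, where the fit without them gave 2344. The number at least 2-fold beyond both moved less, from 194 to 170.

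Genes of stress signalling were among those above both ages. In the JNK pathway a TNF-like ligand (egr) acts through receptors (grnd, wgn) and a kinase cascade (slpr, hep, bsk) on the transcription factors Jra and kay, which are Jun and Fos. Of 17 measured genes of this pathway and its targets, 11 rose and 2 fell against control 92 h, with a median difference of 0.69 against -0.03 for all genes. Against control 92 h 15.1% of all genes rose and 20.5% fell, and against control 116 h 12.6% were higher and 19.1% lower. Above both ages lay 8.27% of all genes and below both 11.3%. List counts below are to be read beside these shares. The same 11 to 2 split was counted beyond both ages. Against control 92 h the count was also 11 and 2 after median centring and after quantile normalization.

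The ligand and most kinases were not called. egr differed by 0.09 from the younger control and was not called, hep by 0.08, msn by 0.10 and slpr by 0.16. The 3 probe sets of hep gave -0.50 to 0.08. bsk fell by 0.31, and its 3 probe sets gave -0.66 to -0.31. The 2 TNF receptors went opposite ways, with grnd higher by 0.53 and wgn lower by 0.77. At the transcription factor level, kay rose by 1.29, Jra by 0.96 and Atf3 by 0.69. The adaptor Traf4 rose by 1.10 and the filamin gene cher by 0.55. The second probe sets of kay and Traf4 gave 0.02 and -0.12, so each of these rises rests on 1 probe set.

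Targets rose most. Ets21C, an ETS-domain transcription factor, measured 3.79, 3.87 and 3.91 in control 92 h arrays, 3.93, 3.90 and 3.96 in control 116 h arrays, and 6.98, 6.82 and 6.97 in avl-RNAi 116 h arrays. It was low in both normal ages and at 92 h in avl-RNAi discs (3.82 to 4.07), and rose by 3.07 ± 0.0871 (limma adjusted p = 3.08e-11). puc, the phosphatase that switches JNK off, went from 7.66, 7.51 and 7.66 to 9.48, 9.62 and 9.88, a rise of 2.05 ± 0.101. scaf, a secreted protease-like JNK target, rose by 2.42 ± 0.1. Pvf1, a PDGF- and VEGF-related ligand, measured 4.99, 4.95 and 5.04 in the younger control and 8.51, 8.14 and 8.25 in the knockdown, a rise of 3.31 ± 0.107. Pvf1 also rises with age in normal discs (5.59, 5.92 and 5.98 at 116 h), yet the knockdown remained 2.47 above them.

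In JAK/STAT signalling the Unpaired cytokines bind the receptor dome, which activates Stat92E. Of 9 measured genes, 6 rose and none fell against control 92 h (all genes: 15.1% and 20.5%). The same count held beyond both ages. After median centring it was 6 higher and 1 lower. upd2 measured 4.60, 4.56 and 4.66 in control 92 h arrays and 7.78, 7.74 and 8.03 in avl-RNAi 116 h arrays, a rise of 3.24 ± 0.107. Control 116 h arrays and avl-RNAi 92 h arrays all lay between 4.48 and 4.63. upd1 was already expressed in the younger control at 7.24, 7.31 and 7.35 and reached 9.72, 9.32 and 9.70, a rise of 2.28 ± 0.115. Normal discs of 116 h measured 6.17, 6.07 and 6.22 for upd1, so the same-age difference was larger, 3.43. dome rose by 0.37, the phosphatase Ptp61F by 0.56 and the repressor gene ken by 0.52. Stat92E differed by -0.11 and was not called.

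chinmo, a BTB zinc-finger gene of early larval identity that responds to JAK/STAT signalling, shows what the choice of control does. It measured 9.51, 9.49 and 9.54 in control 92 h discs, 6.84, 6.92 and 6.65 in control 116 h discs, and 10.98, 10.58 and 10.50 in avl-RNAi 116 h discs. The knockdown was 3.88 ± 0.113 above its same-age control but 1.18 ± 0.113 above the younger one (limma adjusted p = 2.82e-06). Thus most of the same-age distance equals the normal fall of 2.71, and the rest lies above any control array. Its 3 probe sets gave 0.21 to 1.31 in the main comparison, so the size of that rest depends on the probe set. Of the other larval temporal genes, lin-28 and mamo rose by 0.17 and 0.45 (the 5 probe sets of mamo gave -0.04 to 0.45). lin-28 lost its call in 10 of 17 alternatives and mamo in 2. Imp, Syp, br and Eip93F were not called, though the 5 probe sets of br gave -0.65 to 0.10.

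Endosomal sorting genes, the group closest to avl in function, were higher in part. Of 23 measured, 10 rose and 1 fell (all genes: 15.1% and 20.5%), and 9 and 1 did so beyond both ages. After median centring 8 rose and 3 fell. ALiX, an ESCRT-associated adaptor, measured 9.75, 9.76 and 9.71 against 10.77, 10.61 and 10.66, a rise of 0.94 ± 0.0528. Rises were also seen for the ESCRT genes shrb (0.70), Hrs (0.66), Vps2 (0.62), Vps4 (0.56), TSG101 (0.53), Vps28 (0.49), Vps60 (0.47), Vps37B (0.29) and Vps24 (0.28). lsn, also of the ESCRT machinery, fell by 0.44.

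In the extracellular matrix and integrin list, 14 of 20 genes rose and none fell against control 92 h (all genes: 15.1% and 20.5%). The count was 10 and 2 after median centring. Against control 116 h it was 8 higher and 5 lower, and 6 genes lay above both ages. Tig, the integrin ligand tiggrin, rose by 2.79 ± 0.265, from 6.64, 7.12 and 6.43 to 9.76, 9.19 and 9.60. scb, an integrin alpha subunit, rose by 2.02 ± 0.159. Timp, an inhibitor of matrix metalloproteases, rose by 1.37 against control 92 h but differed by -0.24 from control 116 h and was not called there. Mmp2 likewise rose by 1.47 and differed by 0.32 from control 116 h without a call. Its second probe set gave 0.09, and the mean of both gave a rise of 0.782.

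Glutathione transferases and cytochrome P450 enzymes detoxify reactive compounds. Of 34 transferases 14 rose and 4 fell (all genes: 15.1% and 20.5%), which median centring turned into 10 and 10. GstE6 measured 8.07, 7.87 and 7.87 in the younger control, 6.23, 6.14 and 6.15 in the older control, and 9.83 to 10.02 in the knockdown. It rose by 2.01 ± 0.107, and by 3.78 against the same age. GstT4 rose by 1.22, GstO1 by 0.72 and GstD1 by 0.65. Of 83 P450 genes 18 rose and 6 fell, beside 15.1% and 20.5% of all genes. Their median difference was 0.01, and median centring turned the count into 14 and 21. Cyp6d2 rose most among the named ones, by 2.41 ± 0.124, from 6.52, 6.67 and 6.52 to 8.93, 8.87 and 9.14. Of 4 metallothioneins, which bind metals, MtnA alone was called, and it rose by 1.55 ± 0.226. Probe sets of such families can pick up related members.

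Of the 27 genes at least 2-fold below both control ages, several were already low at 92 h in the knockdown genotype. RpS21, a protein of the small ribosomal subunit, measured 13.54, 13.55 and 13.62 in control 92 h and 13.58 to 13.62 in control 116 h arrays. In avl-RNAi arrays of 92 h it was 11.94 to 12.07, in those of 116 h 12.07, 12.17 and 12.24, and in those of 168 h 11.95 to 12.06. It thus fell by 1.41 ± 0.0527 and was equally low at each avl-RNAi age. The taste receptor gene Gr64a and the odorant-binding gene Obp46a behaved alike in this respect. Gr64a measured 5.44 to 5.55 in control 92 h arrays and 3.66 to 3.97 across all 9 avl-RNAi arrays. Obp46a measured 5.42 to 5.99 in control 92 h arrays and 3.70 to 4.03 across those 9. RpS19b fell by 2.27 ± 0.0916 and differed by -1.39 from its control at 92 h.

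Others were lower at 116 h than at 92 h in the knockdown. geko fell by 1.73 ± 0.0775, from 7.30, 7.13 and 7.23 to 5.48, 5.56 and 5.42, and differed by -0.31 from its control at 92 h. Hsp26, a small heat shock protein, differed by -0.82 from its control at 92 h, and at 116 h by -1.49 from the younger and -2.69 from the same-age control. Fkbp14, a peptidyl-prolyl isomerase of the endoplasmic reticulum, fell by 1.37. mnd, an amino acid transporter gene, fell by 1.35 ± 0.122, from 9.0, 8.90 and 8.93 to 7.44, 7.76 and 7.58. The amino acid transporter gene path, which is not among the 27, fell by 0.98, short of 2-fold.

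Normal discs changed between the 2 ages as well: 1584 genes rose (13.2%) and 1648 fell (13.8%), with 218 rises (1.82%) and 155 falls (1.29%) of at least 2-fold. These 373 genes, equal by coincidence to the number of 2-fold calls above, serve as the measure of normal change between the ages. They need not all be of disc cells. Between the control ages all 5 salivary glue genes were called higher (median 2.58) and 8 of 9 muscle genes lower (median -1.61). None of the 19 gut genes was called. Each of the 373 was placed by where avl-RNAi 116 h discs lay between the 2 control ages. The control 92 h arrays enter both measures. A gene was held when it was called against control 116 h and its 95% interval lay inside 1.5-fold of control 92 h, and reached when it was called against control 92 h with an interval inside 1.5-fold of control 116 h.

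Of the 373 genes, 75 (20.1%) were held at the younger level, 109 (29.2%) lay part-way, 35 (9.38%) had reached the older level and 13 (3.49%) had gone past it. A further 42 (11.3%) lay on the opposite side of control 92 h, away from maturation, and 99 (26.5%) could not be placed. With the tissue covariates 42 were held and 47 part-way. Genes that rise in normal discs were held or part-way in 54 and 78 of 218 cases, genes that fall in 21 and 31 of 155.

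**Figure D2:**
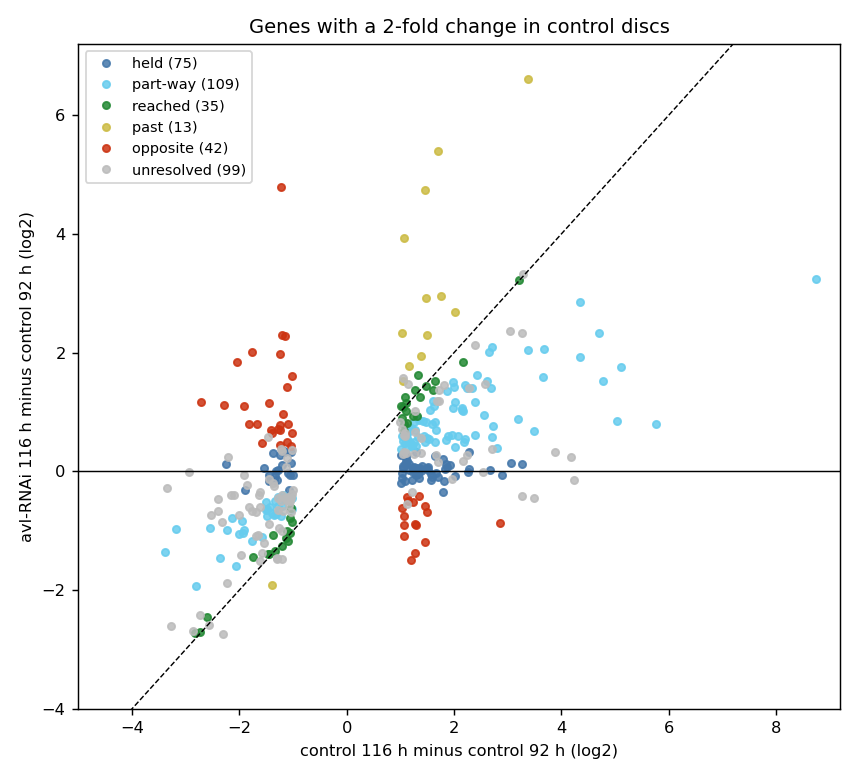
Log2 difference of avl-RNAi 116 h from control 92 h (vertical) against that of control 116 h from control 92 h (horizontal) for 373 genes, 1 point per gene, coloured by class. Points on the horizontal line stay at the younger level (75 held) and points on the dashed diagonal equal the older level (35 reached); both axes subtract the same control 92 h arrays.

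A position scale set the mean of control 92 h to 0 and that of control 116 h to 1 for each of these genes. The median position of avl-RNAi 116 h discs was 0.347, with quartiles of 0.0184 and 0.642. It was 0.245, 0.347 and 0.381 in the 3 arrays taken singly. It was 0.341 over genes that rise and 0.366 over genes that fall. Of the 373 genes, 87 lay below 0 and 31 above 1. At 92 h the median position was -0.0231 and at 168 h it was 0.87, so by this measure avl-RNAi discs of 116 h lay between the normal ages, with a wide spread over genes.

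**Figure D3:**
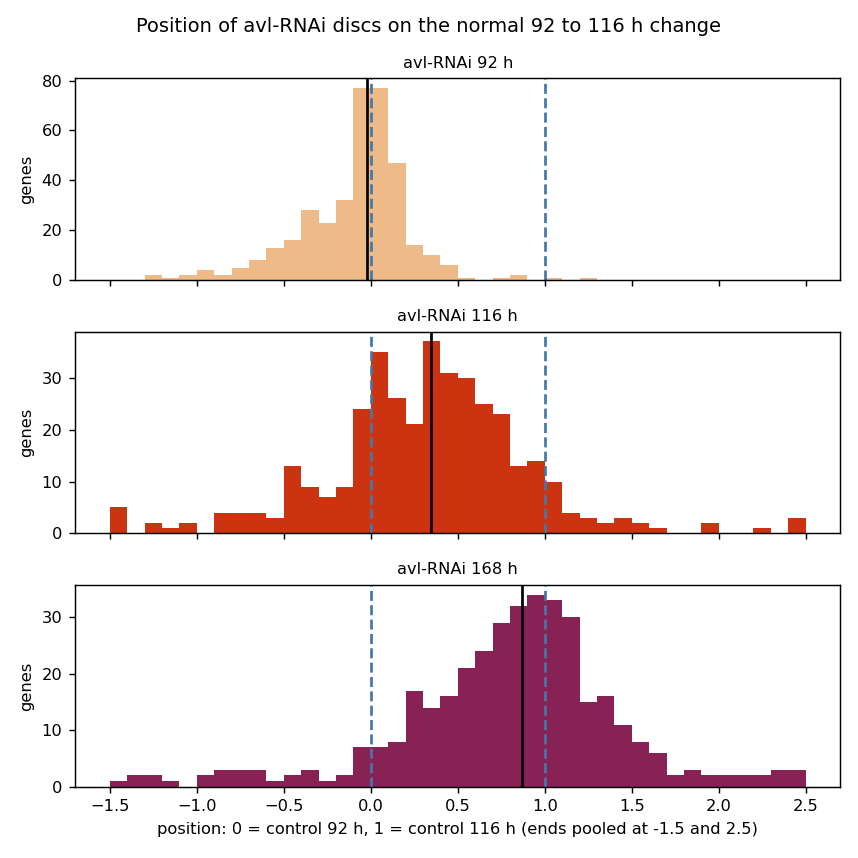
Number of genes by position between control 92 h (0) and control 116 h (1), for 373 genes in avl-RNAi discs of each age; dashed lines mark the control ages and the black line the median. The median is -0.0231 at 92 h, 0.347 at 116 h and 0.87 at 168 h, and values beyond the ends are pooled in the outer bins.

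Held genes that rise in normal discs included a transcription factor of sensory organ precursors, an ecdysone-induced receptor and a protease of disc eversion. sens measured 3.92, 3.89 and 3.89 in control 92 h, 5.92, 6.28 and 6.36 in control 116 h, and 3.89, 3.96 and 3.97 in avl-RNAi 116 h arrays. The knockdown differed from the younger control by 0.04 ± 0.0962, with a 95% interval from -0.166 to 0.25, and from its same-age control by -2.25. Eip78C, a nuclear receptor, measured 4.24, 4.17 and 4.31, then 6.28, 6.43 and 6.78, and in the knockdown 4.15, 4.26 and 4.26. Sb, the Stubble protease, measured 6.33, 6.21 and 6.34, then 7.96, 8.05 and 8.31, and in the knockdown 5.88, 6.35 and 6.17. The sulfotransferase gene pip differed by 0.03 from the younger control where normal discs rose by 2.67, and its 10 probe sets gave -0.19 to 0.04. nemy and fok were held as well, at 0.12 and 0.04. In control 92 h arrays sens and Eip78C lay below the array medians over all probe sets, 4.74 to 4.79. At such low values an interval inside 1.5-fold cannot tell a held level from an undetected transcript. Without the lowest 50% of genes, 28 rising genes were held, where 54 were with all genes.

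Held genes that fall in normal discs included the cuticle gene Cpr49Ah (0.12 from the younger and 2.38 above the older control), the globin gene glob1 (0.05 and 1.59) and the glutathione transferase GstE7 (-0.06 and 1.39). The transferrin gene Tsf1 was held by its interval though called, at -0.31 ± 0.105 (limma adjusted p = 0.0356). exp differed by -0.15 and slf by 0.00 from the younger control, the latter with a standard error of 0.27.

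Genes part-way between the ages included the largest normal rise of all. ImpE2, an ecdysone-inducible gene of disc morphogenesis, measured 4.39, 4.72 and 4.74 in control 92 h, 13.19, 13.35 and 13.56 in control 116 h, and 7.31, 7.91 and 8.34 in avl-RNAi 116 h arrays. It rose by 3.23 ± 0.363 against the younger control and differed by -5.51 from the older one. ana, a secreted glycoprotein gene, rose by 1.76 against control 92 h and differed by -3.35 from control 116 h. The sulfotransferase St2 rose by 0.85 and the serpin Spn43Aa by 0.79, where normal discs rose by 5.04 and 5.76. St2 kept its call in all 18 alternatives, but Spn43Aa lost it in 5, among them the tissue covariates.

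Cht5, a chitinase of moulting, was the clearest gene to reach the older level. It measured 5.55, 5.69 and 5.84 in control 92 h, 8.88, 8.87 and 8.95 in control 116 h and 9.25, 8.58 and 8.89 in avl-RNAi 116 h arrays, a rise of 3.22 ± 0.153 with a same-age difference of 0.00 ± 0.153. CAH9 and Lcp65Ag3, described above, reached it from the other side, and Osi2 rose by 1.84. TwdlE, the cuticle genes Cpr51A (2.96 ± 0.39) and Cpr66D (2.29 ± 0.131) and the transporter gene E23 (1.78 ± 0.153) went past it. Each of these 4 rises in normal discs.

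Among genes on the opposite side, chinmo, upd1, GstE6 and Ilp8 fall in normal discs and rose in the knockdown. Osi14 measured 8.98, 8.93 and 9.0 in control 92 h, 6.93, 6.87 and 6.95 in control 116 h, and 11.28, 10.47 and 10.69 in avl-RNAi 116 h arrays, a rise of 1.84 ± 0.143. Ude, a uracil-DNA degrading factor gene, rose by 1.12 ± 0.155. wbl, an endoplasmic reticulum protein on which the pip product depends in the fly egg chamber, rises by 2.86 in normal discs and differed by -0.87 ± 0.156 from the younger control in the knockdown.

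The ecdysone response list followed the same division. Of 26 genes, 8 rose and 1 fell against control 92 h (all genes: 15.1% and 20.5%), which became 8 and 7 after median centring. Against control 116 h 5 were higher and 9 lower. Of those 9, none was lower than the younger control, 2 were higher and 7 were not called, 5 of them inside 1.5-fold. The 3 ImpE genes differed. ImpE3 measured 5.95 to 6.21 in control 92 h, 9.62 to 10.46 in control 116 h and 6.37 to 6.43 in avl-RNAi 116 h arrays, and its difference of 0.33 ± 0.183 from the younger control was not called. ImpE1 rose by 2.37 ± 0.267 with its chosen probe set, but its 4 probe sets ranged from 0.01 to 2.37. ImpL2, a secreted insulin-binding protein, rose by 1.45 and was 1.52 above control 116 h, and ftz-f1, a nuclear receptor, rose by 0.48.

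Notch targets and proneural genes specify sensory organs in late discs. Of 21 measured, 2 were higher and 17 lower than in control 116 h (all genes: 12.6% and 19.1%). Against control 92 h 6 were higher and 4 lower (all genes: 15.1% and 20.5%), and median centring turned these into 3 and 7. Of the 17, 4 were also lower than the younger control, 4 were higher and 9 were not called, all 9 inside 1.5-fold. The proneural genes sc and ac differed by -0.10 and 0.04 from the younger control and by -1.03 and -0.73 from the older one. phyl, which acts downstream in sensory precursors, differed by -0.16 and -1.15. Brd, of the Bearded family, fell by 0.73, and edl rose by 0.51. neur, a ubiquitin ligase of Notch ligand uptake, rose by 0.66 and was 0.41 above control 116 h.

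Patterning genes of the notum gave a like picture. Of 11 measured, none was higher and 9 were lower than in control 116 h (all genes: 12.6% and 19.1%). Against control 92 h 2 rose and 1 fell (all genes: 15.1% and 20.5%), or 2 and 3 after median centring. Of the 9, 7 were not called against the younger control, 6 of them inside 1.5-fold, 1 was lower and 1 higher. pnr, a GATA factor of the notum, differed by -0.34 from the younger control without a call and by -1.06 from the older one. B-H1, a homeobox gene, rose by 0.58 against control 92 h and differed by -0.74 from control 116 h.

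Part of the wing pouch and hinge genes stayed low with the younger control. Of 29 measured, 1 was higher and 16 were lower than in control 116 h. Of the 16, 8 were also lower than control 92 h, 5 were higher and 3 were not called, all 3 inside 1.5-fold. Against control 92 h 10 rose and 8 fell in all (all genes: 15.1% and 20.5%). That count was 3 and 11 after median centring, 8 and 9 after quantile normalization and 4 and 7 with the tissue covariates. The rises were small, 0.52 at most (bab2).

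The 8 that fell were dve, Doc1, nub, Doc3, Doc2, pdm2, vg and kni. dve, a homeobox gene of the wing blade, measured 8.55, 8.57 and 8.61 in control 92 h and 7.27, 7.56 and 7.62 in avl-RNAi 116 h arrays, a fall of 1.10 ± 0.094, though its second probe set gave 0.00. Doc1, a T-box gene of the hinge and dorsal pouch, went from 7.65, 7.68 and 7.66 to 6.35, 6.95 and 6.88, a fall of 0.94 ± 0.121. nub, the pouch POU-domain gene, fell by 0.58, with 3 probe sets from -0.58 to 0.08 and -0.254 for their mean. vg, the wing selector, fell by 0.40. rn, whose enhancer drives the GAL4, differed by -0.13 and was not called. Precursors of the adult muscles, which lie under the notum epithelium, were measured by 7 genes. Of these 4 rose against control 92 h (Him by 0.84, kirre by 0.72, twi by 0.48 and sns by 0.29) and 3 were lower than in control 116 h. The second probe set of kirre gave -0.14.

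Of 28 cell cycle and replication genes 25 fell and none rose against control 92 h, with a median difference of -0.40. Against control 116 h 11 were lower and none higher, and in normal discs 17 fell and 2 rose with age. borr, a chromosomal passenger gene, went from 11.33, 11.29 and 11.33 to 10.46, 10.63 and 10.54, a fall of 0.77 ± 0.0498. dup and Orc2, of replication licensing, fell by 0.71 and 0.59 and were not called against control 116 h (-0.12 and 0.04). Cdk2 fell by 0.63.

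Proteasome subunits were lower with either control. Of 40, 28 fell and none rose against control 92 h, with a median of -0.47, and 26 were below both ages. With age 23 of the 40 also fell in normal discs and none rose, with a median of -0.17. Prosalpha5 went from a mean of 12.03 ± 0.0421 (SD, n = 3) to one of 11.37 ± 0.0574, a fall of 0.67 ± 0.0439, and differed by -0.37 from control 116 h. Rpt4 fell by 0.68. Mitochondrial ribosomal proteins were lower chiefly against the younger control. Of 69, 58 fell and 2 rose, whereas against control 116 h 19 were lower and 7 higher. In normal discs 54 fell with age and none rose. Of 66 oxidative phosphorylation genes 45 fell and 1 rose, and against control 116 h 14 were lower and 3 higher. Between the control ages 41 of these 66 fell and none rose. The medians of these lists were -0.37 and -0.35 in the main comparison. In each of these 4 lists falls outnumbered rises under every scaling tried and with the tissue covariates (23 to 27, 28 to 33, 47 to 65 and 38 to 54 falls in the order described).

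Of 11 glycolysis genes, 9 were lower than in control 116 h, but against control 92 h 2 fell and 1 rose, or 5 and none after median centring. Glut1, a glucose transporter, differed by 0.05 from the younger and by -1.26 from the older control. Pfk, the phosphofructokinase, differed by 0.11 and -0.65. In the apoptosis list 5 of 9 rose and 1 fell (4 and 2 after median centring), with p53 at 1.01 and the caspase Strica at 1.0, and 2 lay above both ages. The second probe set of p53 gave 0.12, and the mean of both 0.563. In the insulin and growth list 6 of 13 rose and 1 fell, or 5 and 4 after median centring. Of all genes 15.1% rose and 20.5% fell. Among these S6k, a kinase downstream of TOR, rose by 0.69, REPTOR, a transcription factor that TOR restrains, by 0.69, and Sesn, a stress-induced TOR inhibitor, by 0.54.

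**Figure D4:**
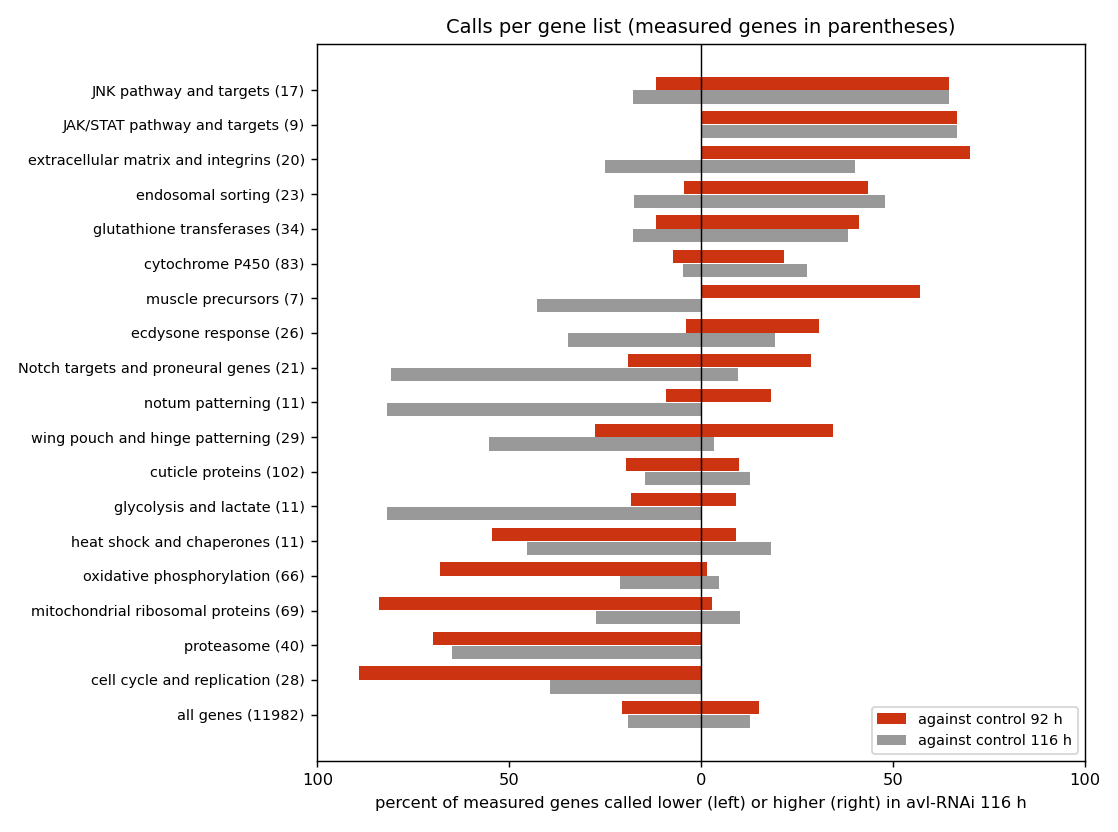
Percent of measured genes of each list called lower (left) or higher (right) in avl-RNAi 116 h discs, against control 92 h (red) and control 116 h (grey), with the number of measured genes in parentheses. JNK and JAK/STAT bars are alike for both controls, while Notch and proneural, notum and glycolysis bars to the left shrink against control 92 h and mitochondrial ribosomal bars grow; the bottom bars give all genes.

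A last comparison, avl-RNAi discs of 168 h against control 116 h, shares no array with the main one. In it 1432 genes were higher (12%) and 1638 lower (13.7%). Of the 1805 genes that rose in the main comparison, 780 (43.2%) were higher there too, which is 54.5% of its rises, and 154 were lower. Of the 2459 that fell, 906 (36.8%) were lower there too, 55.3% of its falls, and 132 were higher. Of the 292 rises of at least 2-fold, 174 (59.6%) were higher at 168 h and 22 were lower. Of the 81 such falls, 35 (43.2%) were lower and 3 higher. These shares are well above 12% and 13.7%, but in both comparisons the knockdown disc is older than its control, so age and knockdown cannot be told apart in them.

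Ilp8 was as high at 168 h (11.11, 11.01 and 11.08) and GstE6 likewise (10.33, 10.16 and 10.29). Ets21C (6.54, 6.47 and 6.80), puc (9.02, 8.78 and 8.86) and upd2 (6.21, 6.02 and 6.56) were 2.67, 1.17 and 1.66 above control 116 h. Other genes did not hold. TwdlE differed by -0.05 from control 116 h at 168 h. MtnA measured 9.93, 9.18 and 9.31 at 116 h and 6.28, 6.13 and 6.2 at 168 h. The amino acid transporter genes mnd and path, low at 116 h, were 1.02 and 1.94 above control 116 h at 168 h.

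**Figure D5:**
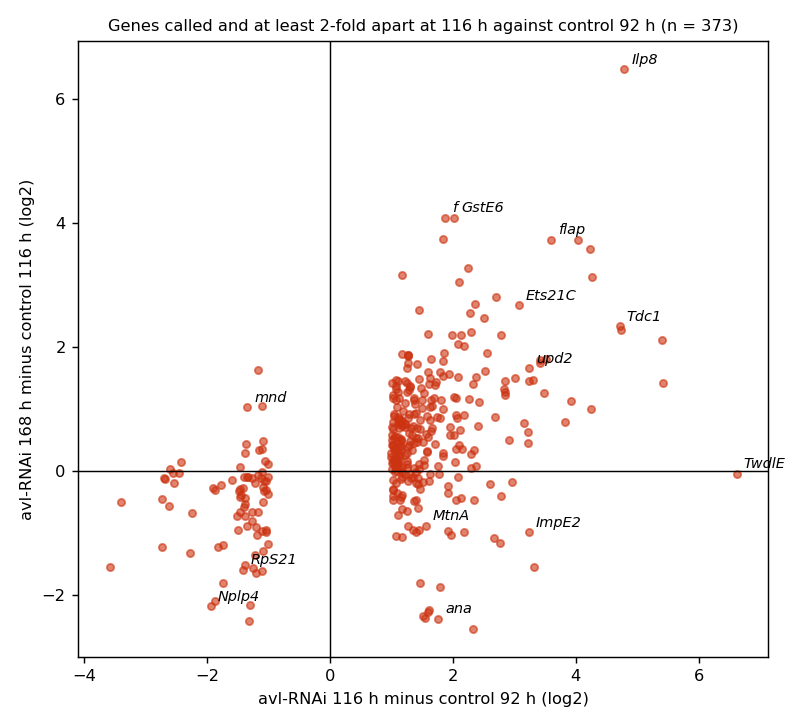
Log2 difference of avl-RNAi 168 h from control 116 h (vertical) against that of avl-RNAi 116 h from control 92 h (horizontal) for the 373 genes called and at least 2-fold apart in the latter, 1 point per gene. Of the 292 rises on the right 174 were called higher at 168 h, with Ilp8 highest, and TwdlE lies on the horizontal line; the axes share no array.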

How the data were processed

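Total RNA of wing discs was hybridized to 1-colour Affymetrix arrays, 15 in all. The authors deposited log2 values of 18952 probe sets; log base 2 is an inference from how far they spread. The background correction and normalization are not given in the sources used here. Per the submitters' processing notes, Partek and limma were used, with no role or version. Every array had a mean of 6.01, no pair of arrays held identical values, and arrays of a group correlated at 0.994 to 0.998. Precision is limited by the number of arrays.

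In the platform annotation 13647 probe sets had 1 symbol, 402 had several and 4903 had none. Symbols were updated through gene identifiers for 13544 and kept for 103. A gene was represented by the probe set with the highest mean, which left 11982 genes, 1094 of them with several probe sets.

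The fit used limma 3.58.1 (lmFit, then eBayes) under R 4.3.3, with 5 group means and 10 residual degrees of freedom, 2-sided, with Benjamini-Hochberg adjustment over all genes. The threshold was an adjusted p under 0.05, and 2-fold means a log2 difference of 1. The script was tested on simulated data. Members, 39 gene lists, rules and alternatives were chosen with earlier results of these data known. The rule for named genes took Ilp8, puc, upd1, upd2, upd3, Mmp1, chinmo, ImpE2 and Syx7 always, the 12 largest rises and falls among called genes with separate arrays and a name, 8 strong genes each way beyond both control ages, 6 held genes each way, 4 of each other class by size of the control change, and up to 4 of each list by adjusted p. Other genes appear where a list is described member by member or as examples chosen after their values were seen. Replicate numbers were not taken to pair samples. Deviations of same-numbered arrays correlated at -0.02 to 0.09 between avl-RNAi 116 h and control 92 h. With control 116 h they correlated at 0.09 to 0.18, and counts with the replicate number as a block are given below. Alternatives were other normalizations, filters, priors, array weights, probe set means, tissue covariates, thresholds, fewer groups and fewer arrays. A planned search of promoters for motifs was not run, because no promoter sequences were used here.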

Additional observations from a re-analysis of the deposited data

Results flagged for a closer look

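Some probe sets outside the gene-level tests were called as well. Of 5122 probe sets whose annotation gave several symbols or none, 538 were called between avl-RNAi 116 h and control 92 h by limma. By at least 2-fold, 31 were higher and 27 lower in the knockdown. Each is a smaller share than among the genes (35.6% called, 2.44% and 0.676% at least 2-fold higher and lower). These probe sets were fitted and adjusted apart from the genes. They are singled out because the comparisons above do not use them, and they carry no gene name here.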

How the results depend on the processing

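The number of genes called, 4264 as reported, was between 3213 and 6303 over 18 alternatives, and a threshold of 0.01 left 3218. Without the lowest 50% of genes, 129 genes lay at least 2-fold beyond both control ages and 46 were held. At an adjusted p under 0.01, 1083 genes were called the same way at 168 h, where 1686 were reported. With tissue covariates 761 genes lay beyond both ages, 42 were held, 47 part-way and 494 called the same way at 168 h. With an equivalence margin of 2-fold 169 were held and 43 part-way. Median centring turned Pgk to -0.017 and the mean of probe sets turned scrib to -0.037. The cause of these changes was not tested, apart from the fewer genes tested in the filtered fit. Leaving out 1 array at a time gave 3738 to 4106 calls, 343 to 398 of at least 2-fold, 1921 to 2398 beyond both ages, 167 to 219 of them 2-fold from each, 62 to 82 held, 97 to 110 part-way, 1385 to 1660 called the same way at 168 h and a median position of 0.299 to 0.376. With the replicate number as a block 4192 genes were called and 2287 lay beyond both ages. Without control 92 h replicate 3 and control 116 h replicate 2, the arrays apart in gut transcripts, a setting chosen after seeing the data, 3738 genes were called and 1821 lay beyond both ages. Of 156 called genes among the 186 named, 126 kept direction and call in every setting, 30 lost the call in at least 1, and 20 lost it with tissue covariates. The planned promoter motif description was not run.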

Other observations

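Gene groups outside the comparisons above gave mixed counts against control 92 h, where 15.1% of all genes rose and 20.5% fell. Of 40 chitin metabolism genes 12 rose and 2 fell (10 and 5 after median centring), with Cht6, a chitinase-like gene, at 1.31, Cht2 at 0.97 and the deacetylase Cda4 at 0.97. In the cadherin and zona pellucida list 5 of 9 genes rose and none fell (4 and 2 after centring). There dyl rose by 1.28 and dpy, the giant apical matrix protein dumpy, by 0.96. The actin bundler f, forked, rose by 1.87, but its second probe set gave -0.01 and the mean of both 0.928. Of 20 innate immunity genes 6 rose and 3 fell, which centring turned into 4 and 7. The serpin nec, a brake on Toll signalling, rose by 1.33, the NF-kappaB factor Rel rose by 0.46, and the peptide gene Mtk fell by 1.47. The NF-kappaB factor dl rose by 0.42, and lost its call with the mean of its probe sets (0.163). Of 102 cuticle protein genes 10 rose and 20 fell, near or below the shares of all genes, and 8 and 43 after centring.

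Of 17 polarity and junction genes 4 rose and 3 fell, with differences between -0.39 (Tsp2A) and 0.39 (crb), and centring turned the count into 1 and 6. Of 13 Hippo pathway genes 4 rose and 1 fell, with fj, a Golgi kinase, at 0.55, and centring turned this into 1 and 4. Of 11 heat shock and chaperone genes 1 rose, the co-chaperone stv by 0.56, and 6 fell, the same count as after centring. Hsp27 differed by -0.12 from the younger control and by -1.47 from control 116 h. Of 41 cytosolic ribosomal protein genes 4 rose and 6 fell, or 2 and 18 after centring.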
